A study of Mus musculus with 6 samples.

Results

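The core circadian clock genes were followed in inguinal white fat, which lies under the skin of the groin, of mice on a high-fat diet. The 10 members were taken by name: Arntl (also called Bmal1), Clock and Npas2 form the positive limb, Per1, Per2, Per3, Cry1 and Cry2 the negative limb, and Dbp and Tef are outputs. All 10 were among the 24984 genes listed and all 10 passed the filter on low counts that left 14065 genes. Bulk RNA sequencing covered 3 libraries of Mpst knockout mice and 3 of wild-type mice, all on the high-fat diet. MPST is a sulfurtransferase of mitochondria and cytosol that yields hydrogen sulfide. The sources used here give neither the design of the deletion, the age and sex of the animals, nor the hour at which tissue was taken. Whether numbered replicates come from different mice is not stated, and the p-values then reflect only how far these libraries scatter, which may be technical.

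In the clock of mammalian cells, CLOCK or its paralog NPAS2 pairs with ARNTL, and the pair binds E-box motifs and drives transcription of the Per and Cry genes. PER and CRY proteins then return to the nucleus and inhibit the pair. DBP and TEF are transcription factors of the PAR bZIP family that bind D-box motifs and carry the rhythm to other genes, and nuclear receptors of the REV-ERB and ROR families close a further loop on Arntl. In adipose tissue these transcripts cycle over the day, with Arntl high when Dbp and the Per genes are low.

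Between 8054560 (knockout replicate 1) and 22458630 (knockout replicate 2) reads were counted in genes per library. Mpst had 3, 10 and 9 counts in the knockout libraries and 1358, 1394 and 1624 in the wild-type libraries, which matched the labels. White adipocyte markers summed to 51930 to 58294 CPM (counts scaled to the normalised library size) in knockout and 70198 to 81398 CPM in wild type, and 3 of the 10 fell. Macrophage markers summed to 2562 to 2827 CPM in knockout and 923 to 1806 CPM in wild type, and 8 of the 15 rose. Skeletal muscle markers ranged widely within both genotypes, from 109.6 to 2551 CPM in knockout (highest in replicate 3) and 122.6 to 1102 CPM in wild type (highest in replicate 2). B and T cell markers summed to 19.4 to 33.7 CPM in knockout and 13.0 to 16.2 CPM in wild type, with none of 9 tested called. Endothelial markers summed to 1317 to 1409 CPM in knockout and 1174 to 1406 CPM in wild type, and 1 of 6 rose. Brown adipocyte markers summed to 71.5 to 106 CPM in knockout and 124 to 199 CPM in wild type, and 1 of 5 fell. That sum does not stand for each marker, since 2 lay above 0 and 3 below. Those above were Ucp1 (log2 fold change 1.78, under 2 CPM in every library) and Dio2 (0.80), neither of them called. Mammary epithelial markers stayed under 2 CPM in sum in every library, with Krt14 at 0.

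Cry1 was the only clock gene that passed the test between the genotypes, and it was higher in knockout. It encodes a cryptochrome, a strong repressor of the ARNTL and CLOCK pair. Cry1 stood at 10.1, 10.5 and 9.25 CPM in knockout replicates 1, 2 and 3, against 5.52, 5.47 and 5.11 CPM in wild-type replicates 1, 2 and 3. Every knockout library lay above every wild-type library, and the spread within each genotype was small. The raw counts behind these levels were 85, 238 and 218 in knockout and 90, 90 and 110 in wild type. The mean was 9.95 ± 0.631 CPM in knockout and 5.36 ± 0.224 CPM in wild type (SD, n = 3 each), a 1.85-fold difference (log2 fold change 0.89, SE 0.17, edgeR quasi-likelihood adjusted p = 0.0249). The log2 fold change stayed between 0.85 and 0.96 over 14 alternatives. The adjusted p rose to 0.0879, 0.0996 and 0.0777 without knockout replicate 1, 2 or 3 and to 0.114 without wild-type replicate 2, fits in which most calls over all genes were also lost, and to 0.285 without both libraries highest in muscle transcripts, where 1 of all genes was called. In bulk tissue, fewer cells of a type and less RNA per cell cannot be told apart. The marker sums of macrophages, white adipocytes, brown adipocytes and B and T cells also separated the genotypes in the same libraries, though not marker by marker. Their part was not tested.

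Over the 14065 tested genes 7.41% were called, 4.76% higher and 2.65% lower in knockout. Among the 10 clock genes 1 was called higher and none lower, a share near that background. At an unadjusted p under 0.05 there were 3 members (Arntl, Cry1 and Cry2) against 27.6% of all genes, and the same 3 did not overlap between genotypes, against 33.3% of all genes. DESeq2 called Arntl and Cry1 and limma-voom Cry1, and neither tool called a member lower. The median log2 fold change over the members was 0.01, with 5 above and 5 below 0, and over all tested genes 0.01.

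**Figure D1:**
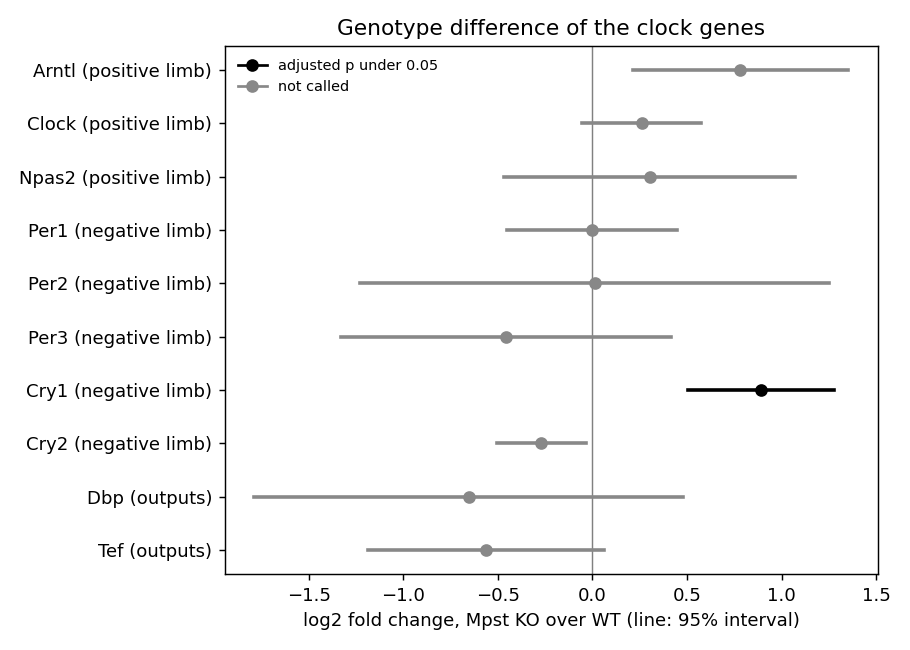
Log2 fold change of each clock gene, Mpst knockout over wild type (x axis), with its 95% interval as a line, and genes from the positive limb at the top to outputs at the bottom. The interval of Cry1 runs from 0.51 to 1.28, while those of Per2, Per3 and Dbp span 0 widely.

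Of the positive limb, Arntl had the largest difference. It encodes the obligate partner of CLOCK and NPAS2. Arntl stood at 12.0, 16.0 and 11.5 CPM in knockout replicates 1, 2 and 3, against 9.81, 8.15 and 5.25 CPM in wild-type replicates 1, 2 and 3. The genotypes did not overlap, knockout replicate 2 was highest and wild-type replicate 3 lowest. The log2 fold change was 0.78 (SE 0.25, 95% interval 0.21 to 1.35), and it did not pass edgeR's quasi-likelihood test (adjusted p = 0.0874). DESeq2 gave an adjusted p of 0.0437. Without wild-type replicate 3 the edgeR value was 0.57 (adjusted p = 0.0729).

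Clock, which encodes the bHLH-PAS factor that pairs with ARNTL, had 69.6, 77.2 and 71.3 CPM in knockout and 72.6, 54.7 and 54.8 CPM in wild type. Wild-type replicate 1 lay among the knockout libraries, and the log2 fold change of 0.26 (95% interval −0.05 to 0.58) did not pass (edgeR adjusted p = 0.258). Npas2, the paralog of Clock, had the fewest reads of the members, with 13, 79 and 47 raw counts in knockout and 35, 32 and 38 in wild type. These corresponded to 1.55, 3.48 and 1.99 CPM in knockout and 2.15, 1.95 and 1.76 CPM in wild type, so that the groups overlapped. Its log2 fold change of 0.30 (95% interval −0.46 to 1.07, edgeR adjusted p = 0.601) turned to −0.11 without knockout replicate 2.

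**Figure D2:**
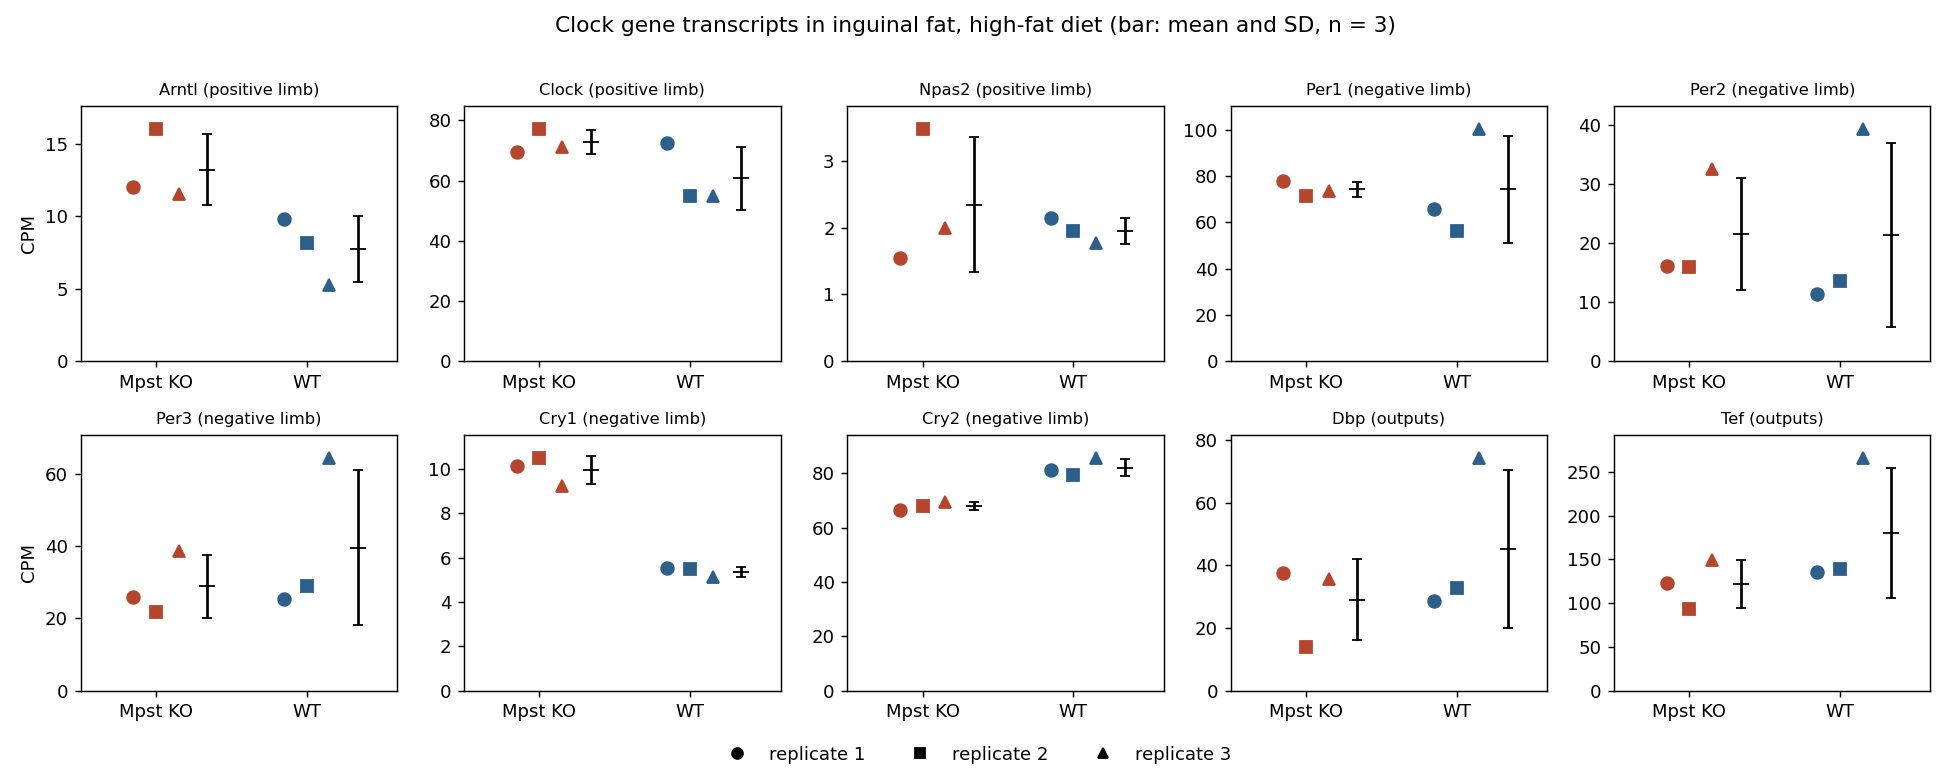
Normalised level in CPM (y axis, from 0) of each clock gene in the Mpst knockout (left) and wild-type (right) libraries, with 1 symbol per replicate and the mean and SD beside each group. Cry1 separates the genotypes with little spread, whereas Per1, Per2, Per3, Cry2, Dbp and Tef are highest in wild-type replicate 3.

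In the negative limb the cryptochromes lay on opposite sides of their wild-type levels, of which only the rise of Cry1 passed the test. Cry2, the other cryptochrome, stood at 66.4, 67.8 and 69.6 CPM in knockout replicates 1, 2 and 3, against 81.0, 79.3 and 85.4 CPM in wild-type replicates 1, 2 and 3. All knockout libraries lay below all wild-type libraries. The log2 fold change was −0.27 (SE 0.10, 95% interval −0.50 to −0.04), which did not pass edgeR's quasi-likelihood test (adjusted p = 0.132). The ratio of Cry1 to Cry2 counts within a library, which does not depend on library scaling, was 0.153, 0.155 and 0.133 in knockout and 0.0681, 0.069 and 0.0598 in wild type. The ratio thus separated the genotypes in all 6 libraries. It is given as a description, since it was looked at after the levels were known.

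The Per genes encode the PERIOD proteins that bind the cryptochromes. Per1, which also responds to glucocorticoids and cyclic AMP, had 77.7, 71.5 and 73.6 CPM in knockout and 65.9, 56.4 and 100.3 CPM in wild type. The mean was 74.3 ± 3.19 CPM in knockout and 74.2 ± 23.1 CPM in wild type (SD, n = 3 each; log2 fold change −0.0013, 95% interval −0.45 to 0.45, edgeR adjusted p = 0.997), and the wild-type libraries lay on both sides of the knockout libraries. Without wild-type replicate 3 the value was 0.28 (adjusted p = 0.13).

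Per2 had 16.1, 16.0 and 32.6 CPM in knockout replicates 1, 2 and 3 and 11.3, 13.6 and 39.4 CPM in wild-type replicates 1, 2 and 3. Replicate 3 was the high library of each genotype, and the groups overlapped. The interval of the log2 fold change, −1.23 to 1.25 around 0.01 (edgeR adjusted p = 0.99), leaves room for a difference of more than 2-fold either way. Per3 had 26.0, 21.8 and 38.7 CPM in knockout and 25.4, 29.0 and 64.3 CPM in wild type. Its log2 fold change of −0.46 (95% interval −1.33 to 0.42, edgeR adjusted p = 0.472) rested on wild-type replicate 3, without which it was 0.095.

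Both output genes had lower means in knockout, and neither passed the test. Dbp had 37.4, 14.1 and 35.5 CPM in knockout replicates 1, 2 and 3, against 28.7, 32.8 and 74.1 CPM in wild-type replicates 1, 2 and 3. Knockout replicate 2 was the lowest and wild-type replicate 3 the highest of the 6 libraries, and the other 4 lay between 28.7 and 37.4 CPM, where both knockout libraries stood above both wild-type libraries. The log2 fold change was −0.65 (95% interval −1.79 to 0.48, edgeR adjusted p = 0.42), and −0.10 without wild-type replicate 3. Tef had 124, 93.6 and 149 CPM in knockout and 136, 139 and 265 CPM in wild type. Its log2 fold change of −0.56 (95% interval −1.19 to 0.06, edgeR adjusted p = 0.221) was −0.17 without wild-type replicate 3.

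The 5′ flanks of the members show which of the clock's own motifs stand next to their starts. RefSeq promoters on GRCm38.p6 were matched for 9 of the 10 members. Per2 had no promoter entry and was not searched. The 250 bases before each start were searched on both strands for 4 motifs. These were the E-box CACGTG, the variant E-box CACGTT, the D-box (TTATGTAA or TTACGTAA) and the core AGGTCA of the ROR element. Among all 32817 promoters of this length, 6.02% held the E-box, 3.85% the variant, 0.929% the D-box and 14% the ROR core. Among the 14 promoters of members, 4 held the E-box (Per1, Cry1 and both Tef starts), 2 the variant (Cry1 and Cry2), 1 the D-box (Per3) and 2 the ROR core (Clock and Per1). No match overlapped another. Some windows hold annotated exon of the same gene. That of the first Tef start is exonic over all 250 bases, so its E-box lies within an exon. The Dbp window holds 159 exonic bases and that of the second Clock start 138. The windows of Cry1 (the called member), of Per3 and Tef (highest in wild-type replicate 3) and of Arntl (lowest there) are shown in lower case, 5′ to 3′ on the gene's strand, with matches in capitals.
Cry1, chr10:85185055-85185304, minus strand: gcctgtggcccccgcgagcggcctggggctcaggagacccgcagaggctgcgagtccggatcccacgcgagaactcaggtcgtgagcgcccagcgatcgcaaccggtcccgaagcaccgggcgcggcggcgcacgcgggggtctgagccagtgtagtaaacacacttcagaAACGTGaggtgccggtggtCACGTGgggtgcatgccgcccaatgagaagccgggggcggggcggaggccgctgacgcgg
Per3, chr4:151044666-151044915, minus strand: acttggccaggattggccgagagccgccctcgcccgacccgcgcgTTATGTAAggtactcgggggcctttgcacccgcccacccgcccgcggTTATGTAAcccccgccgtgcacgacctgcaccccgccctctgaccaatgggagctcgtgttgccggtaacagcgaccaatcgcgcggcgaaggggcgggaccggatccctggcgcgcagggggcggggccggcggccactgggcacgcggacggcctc
Tef, chr15:81811164-81811413, plus strand: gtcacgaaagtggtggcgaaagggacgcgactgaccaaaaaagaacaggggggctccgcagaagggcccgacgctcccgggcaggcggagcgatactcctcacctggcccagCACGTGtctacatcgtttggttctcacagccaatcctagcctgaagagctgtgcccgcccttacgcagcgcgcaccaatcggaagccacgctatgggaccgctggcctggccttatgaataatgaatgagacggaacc
Arntl, chr7:113207215-113207464, plus strand: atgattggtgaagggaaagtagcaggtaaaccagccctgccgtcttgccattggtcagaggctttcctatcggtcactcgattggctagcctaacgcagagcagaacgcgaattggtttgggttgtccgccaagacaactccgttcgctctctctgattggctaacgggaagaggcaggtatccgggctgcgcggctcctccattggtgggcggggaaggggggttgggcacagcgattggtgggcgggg
Cry1 carries a variant E-box that begins 79 bases and an E-box that begins 60 bases before its start, and Per3 carries a pair of D-boxes at 205 and 158 bases. The letters searched are not in the Arntl window, which says nothing of sites elsewhere. A match is a description of the sequence and no evidence of binding.

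Read library by library, the members peaked in 2 of the 6 libraries, 1 of each genotype. Every member was highest either in wild-type replicate 3 (Per1, Per2, Per3, Cry2, Dbp and Tef) or in knockout replicate 2 (Arntl, Clock, Npas2 and Cry1). Over all tested genes, wild-type replicate 3 was highest in 23.1% and lowest in 21.4%, and knockout replicate 2 highest in 9.98% and lowest in 8.89%. Wild-type replicate 3 was also lowest for Arntl and Cry1, and knockout replicate 2 lowest for Per3, Dbp and Tef. This reading was chosen after the levels were seen and has no test. The same libraries lay at the ends of the summed macrophage markers, at 2827 CPM in knockout replicate 2 and 923 CPM in wild-type replicate 3. Wild-type replicate 3 was also highest in summed brown adipocyte markers (199 CPM). The part of cell makeup in the pattern of these libraries was not tested.

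Relative to the wild-type mean of log2 CPM, the positive limb averaged 0.19, 0.77 and 0.30 in knockout replicates 1, 2 and 3 and 0.27, −0.0049 and −0.26 in wild-type replicates 1, 2 and 3. The outputs averaged −0.30, −1.21 and −0.21 in knockout and −0.43, −0.31 and 0.74 in wild type. The library with the highest positive limb was thus the one with the lowest outputs, and the reverse held for wild-type replicate 3. The Per genes averaged −0.18, −0.31 and 0.32 in knockout and −0.44, −0.37 and 0.81 in wild type. They were high with the outputs in wild-type replicate 3, but in knockout replicate 2 they lay above wild-type replicates 1 and 2. Knockout replicate 3 came next after wild-type replicate 3 for the Per genes and for the outputs alike, though only its Per genes lay above 0. The Cry genes averaged 0.31, 0.35 and 0.28 in knockout and 0.01, −0.0082 and −0.0047 in wild type, where the rise is that of Cry1.

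The log2 ratio of Arntl to Dbp counts within a library was −1.64, 0.19 and −1.62 in knockout replicates 1, 2 and 3 and −1.55, −2.01 and −3.82 in wild-type replicates 1, 2 and 3. Knockout replicate 2 and wild-type replicate 3 stood at the ends, and the other 4 libraries lay close together with the genotypes mixed. The log2 ratio of Arntl to Per3 was −1.11, −0.44 and −1.75 in knockout and −1.38, −1.83 and −3.61 in wild type, with the same libraries at the ends. That of Arntl to Tef, the other output, also had these ends but separated the genotypes. It was −3.36, −2.55 and −3.69 in knockout and −3.79, −4.10 and −5.66 in wild type. The ends were not general. For Arntl over Cry1 and Clock over Per1, wild-type replicate 1 was highest (log2 ratio 0.83 and 0.14) and wild-type replicate 3 lowest (0.039 and −0.87).

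**Figure D3:**
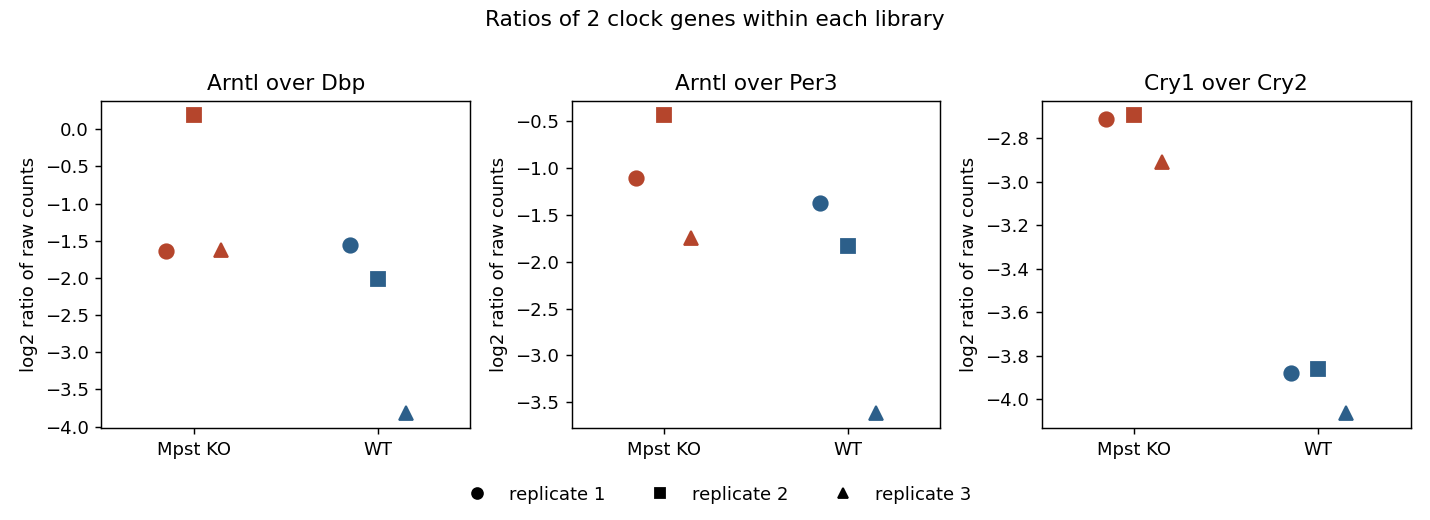
Log2 ratio of raw counts of a pair of clock genes in each library (y axis, not starting at 0), Mpst knockout left and wild type right, with 1 symbol per replicate. Arntl over Dbp and Arntl over Per3 are set apart by knockout replicate 2 and wild-type replicate 3, whereas Cry1 over Cry2 separates the genotypes.

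A list of 25 further genes outside the members, drawn up as clock genes, regulators and outputs, showed 1 higher and 1 lower call among 24 tested (Rorb was not tested), against 4.76% and 2.65% of all genes. Being listed does not show that a gene follows the clock in this tissue. Gsk3b, a kinase that phosphorylates clock proteins among many others, rose to 72.4, 77.2 and 71.4 CPM in knockout, against 53.1, 50.6 and 44.5 CPM in wild type (log2 fold change 0.58, SE 0.11, edgeR adjusted p = 0.0274). Tspo, a mitochondrial outer membrane protein listed as a clock output, fell to 569, 534 and 369 CPM in knockout, against 709, 873 and 1056 CPM in wild type (log2 fold change −0.84, SE 0.21, edgeR adjusted p = 0.0462). Neither genotype overlapped the other for these genes. Of the 10 regulators of clock proteins Gsk3b was the only one called, and of the 6 further outputs Tspo was. The median log2 fold change of the 24 was 0.04, with 14 above and 10 below 0. Wild-type replicate 3 was the highest library for 11 of the 24, against 23.1% of all genes, and knockout replicate 2 for 4, against 9.98%. Like Cry1, Gsk3b and Tspo lost their calls when any 1 knockout library or wild-type replicate 2 was left out (adjusted p 0.0778 to 0.161), fits in which 0 to 41 of all genes were called higher and 1 to 5 lower. Their log2 fold changes there were 0.54 to 0.60 for Gsk3b and −0.96 to −0.67 for Tspo. Without both libraries highest in muscle transcripts, where 1 of all genes was called, the values were 0.62 for Gsk3b (adjusted p = 0.294) and −0.68 for Tspo (adjusted p = 0.339).

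Among the 8 tested genes listed as the second loop none passed, 4 lay above and 4 below 0. Besides genes of REV-ERB and ROR receptors, this list holds Nfil3, Bhlhe40, Bhlhe41 and Ciart. The examples that follow were chosen after their values were seen.

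Nr1d1, which encodes the repressor REV-ERB alpha, had 99.0, 67.6 and 140.9 CPM in knockout and 80.7, 112 and 217 CPM in wild type, with the same libraries at the ends as for Dbp (edgeR adjusted p = 0.538). Nfil3, a repressor that competes at D-boxes, ran the other way, at 13.0, 19.0 and 11.1 CPM in knockout and 14.7, 12.5 and 6.73 CPM in wild type (edgeR adjusted p = 0.484). Rora, which encodes a ROR receptor that activates Arntl, had 48.1, 53.1 and 47.7 CPM in knockout and 41.1, 34.5 and 40.6 CPM in wild type, without overlap (log2 fold change 0.36, edgeR adjusted p = 0.0977). Nr1d2, the other REV-ERB gene, did not share both ends with Dbp. It had 64.1, 57.9 and 84.0 CPM in knockout and 50.9, 50.9 and 99.3 CPM in wild type (edgeR adjusted p = 0.946). Wild-type replicate 3 was highest, but knockout replicate 2 was not lowest.

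**Figure D4:**
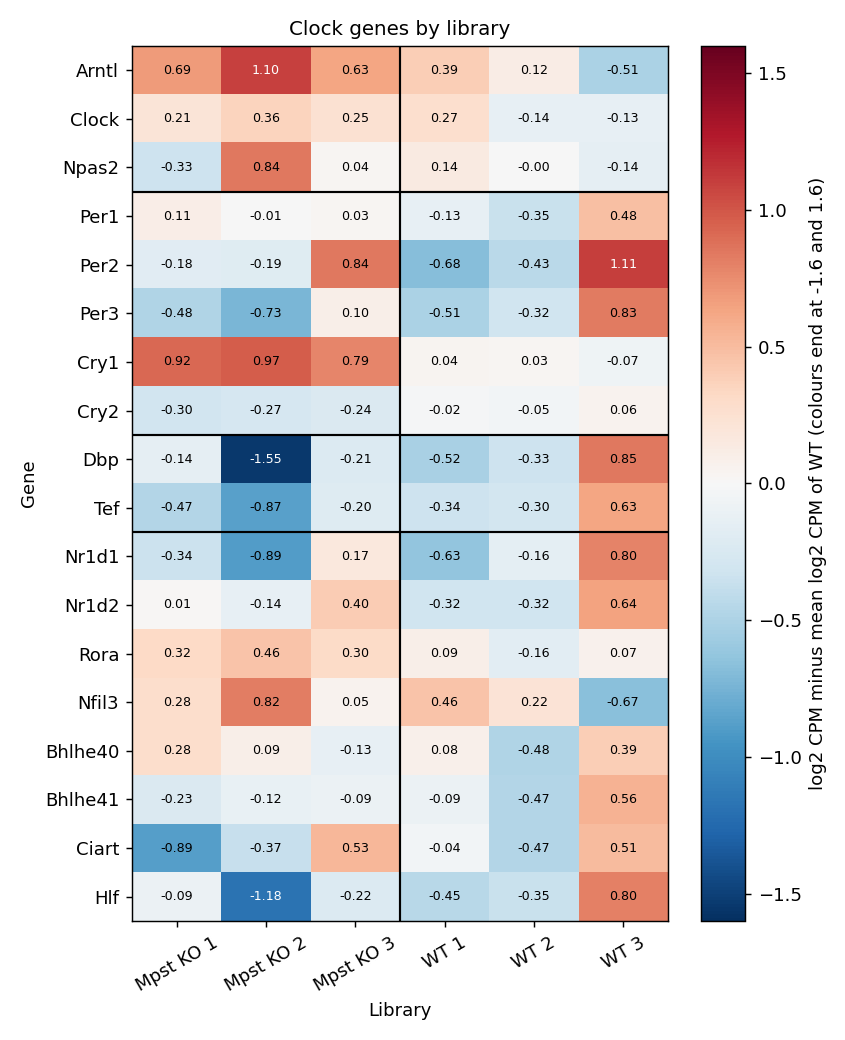
Log2 CPM minus the wild-type mean of log2 CPM (colour and printed value) in each library. Rows are the 10 members, 7 genes listed as the second loop and Hlf. Columns are the Mpst knockout libraries (left 3) and wild-type libraries (right 3). Lines part the positive limb, negative limb, outputs and further genes. Wild-type replicate 3 is high for Per3, Dbp and Hlf and low for Arntl and Nfil3, and knockout replicate 2 shows the reverse.

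The genes whose levels ran most like 2 members were taken by Pearson's r of log2 CPM over the 6 libraries among 9508 genes of at least 10 CPM on average. Most like Dbp was Hlf, which encodes the remaining PAR bZIP factor (r = 0.993, rho = 1, and r = 0.961 without the 2 libraries farthest from the median, knockout replicate 2 and wild-type replicate 3). Hlf had 12.3, 5.77 and 11.2 CPM in knockout and 9.56, 10.2 and 22.8 CPM in wild type. Nfix and 2810013P06Rik followed at r = 0.985 and 0.972 (rho = 0.657 and 0.886), falling to 0.337 and 0.503 without those libraries, so that they rest on them. Most opposite to Dbp were Klhl25 (r = −0.981, rho = −0.943, and r = −0.851 without them), Mageh1 (r = −0.97, rho = −0.886, then r = −0.285) and Cycs (r = −0.966, rho = −0.829, then r = −0.569). Among the genes most like Arntl were Mcl1 and Hmgcs1 (r = 0.995 and 0.993, rho = 1 and 0.943, with r at least 0.983 without the 2 farthest libraries). Most opposite to Arntl were Mettl17, Pomgnt1 and Sidt2 (r = −0.999, −0.994 and −0.993, rho = −1, −0.943 and −0.943, with r at most −0.963 without the 2 farthest). These are the extremes of all 9508 genes over 6 libraries, which also differ in depth and cell makeup, and carry no test.

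Levels were compared between members only per kilobase of merged exon. Tef and Dbp were most abundant, at 25.9 ± 5.88 and 15.8 ± 7.06 CPM per kb in knockout and 38.3 ± 15.7 and 24.6 ± 13.6 CPM per kb in wild type (SD, n = 3 each). Cry2 stood at 15.6 ± 0.364 CPM per kb in knockout and 18.9 ± 0.72 CPM per kb in wild type, and Per1 at 13.2 ± 0.567 and 13.2 ± 4.11 CPM per kb in knockout and in wild type. Clock followed at 7.32 ± 0.398 CPM per kb in knockout and 6.12 ± 1.04 CPM per kb in wild type, and Per3 at 4.81 ± 1.47 CPM per kb in knockout and 6.60 ± 3.58 CPM per kb in wild type. Arntl, Per2 and Cry1 lay at 4.27 ± 0.794, 3.70 ± 1.64 and 3.29 ± 0.209 CPM per kb in knockout and at 2.50 ± 0.747, 3.67 ± 2.67 and 1.77 ± 0.074 CPM per kb in wild type. Npas2 was lowest, at 0.553 ± 0.238 CPM per kb in knockout and 0.461 ± 0.045 CPM per kb in wild type. By the range over libraries, the neighbours that overlapped in knockout were Tef with Dbp, Dbp with Cry2, Per3 with Arntl, Arntl with Per2 and Per2 with Cry1. In wild type the order ran Tef, Dbp, Cry2, Per1, Per3, Clock, Per2, Arntl, Cry1 and Npas2, and all neighbours overlapped except Cry2 with Per1 and Cry1 with Npas2.

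On GRCm38, Cry1 (ENSMUSG00000020038.10) spans 85131700 to 85185064 of chromosome 10, minus strand, and Arntl (ENSMUSG00000055116.8) 113207465 to 113314126 of chromosome 7, plus strand. Dbp (ENSMUSG00000059824.12) spans 45705088 to 45710203 of chromosome 7, plus strand, and shares 539 exon bases, 29.3% of its merged exons, with Sphk2 on the opposite strand. The library kit does not mark strand, so reads there cannot be told apart and the level of Dbp is uncertain to that extent. Sphk2, a sphingosine kinase, had 38.9, 36.7 and 34.9 CPM in knockout and 45.9, 40.7 and 36.3 CPM in wild type. Whether the counter gave the shared reads to either gene is not known, and their part in the level of Dbp was not tested. Among the other members, shared exon bases with another gene reached 4.1% at most (Tef, with an antisense transcript).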

How the data were processed

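Raw counts per gene symbol were deposited for each library by the authors. Per the labels' protocols, RNA was extracted with TRIzol and made into TruSeq RNA v2 libraries, sequenced as 75-base single ends (NextSeq500). HISAT2 2.1.0, HTSeq 0.13.5, DESeq2 1.26 and the build mm10 are named in the submitters' processing notes. The counter's annotation and strand setting: not given in the sources used here. Closing lines of the counter were left out of library sizes; of uniquely placed reads, those in no feature made up 8.85% to 14.7% and ambiguous ones 1.63% to 1.83%.

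Files were joined to genotypes through the labels. Counts were fitted in R 4.3.3 with edgeR 4.0.16 (filterByExpr, TMM scaling, robust quasi-likelihood F test, two-sided, all 6 libraries, no covariate), with Benjamini-Hochberg adjustment over 14065 genes and calls under 0.05. SE is the log2 fold change over the square root of F, and 95% intervals use the fit's degrees of freedom. Scripts were tested on simulated data. Replicates of a genotype always differed by more than counting noise (median ratio of squared deviations 3.27 to 23.1 over genes of at least 50 counts). Alternatives were other scalings, DESeq2 1.42.0, limma-voom (limma 3.58.1), other filters, no robust step, a replicate block and each library left out. Leaving out both libraries highest in muscle transcripts was added after seeing the data. Exon lengths came from the GENCODE M21 basic set. Named genes were the members, Mpst, called genes of the wider clock list, the 2 of smallest p in the glucocorticoid-responsive and immediate early lists and the 3 most like and most opposite to Arntl and to Dbp; 2 genes are not reported here. Nr1d1, Nr1d2, Nfil3, Rora, Fkbp5 and Sphk2 were named outside this rule, after their values were seen. Members and lists were chosen with earlier results of these data known.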

Additional observations from a re-analysis of the deposited data

How the results depend on the processing

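Cry1 kept its direction in all 14 alternatives that tested it and its call in 9. With DESeq2, 2 clock genes were higher (Arntl and Cry1), 2 wider clock genes higher and 2 lower, and 1074 of all genes higher and 894 lower. With a mean of at least 10 CPM required, 0 clock genes were higher, since Cry1 was not tested. With the replicate block, 2 clock genes were higher (Arntl and Cry1) and 1 lower (Tef), 0 wider genes lower, and 1387 of all genes higher and 1289 lower. Whether equal numbers pair the samples is not known. Correlations of same-numbered deviations were 0.17, −0.10 and 0.30 for replicates 1, 2 and 3. Replicate 3 of each genotype matched best with replicate 3 of the other, while replicate 2 matched best elsewhere. With 3 libraries per genotype this check cannot decide, so the replicate block is given as an alternative and not as a better estimate. Without both libraries highest in muscle transcripts, 0 clock genes and 0 wider genes passed in either direction, and 0 of all genes were higher and 1 lower. With each library left out, clock genes called higher ranged from 0 to 1, wider genes higher and lower from 0 to 2, and all genes from 0 to 1434 higher and 1 to 1167 lower; fewer libraries enter these fits. The sign turned in some settings for Per1, Per2, Per3, Npas2, Nr1d1 and Nr1d2. Per1 was 0.044 with limma-voom, 0.017 at 10 CPM and 0.041 with the replicate block, and lay between −0.16 and 0.28 when single libraries were left out. Per2 was −0.0025 with relative log expression scaling, −0.0060 with DESeq2, −0.67 without the muscle-rich libraries, and between −0.43 and 0.81 when single libraries were left out. In the same left-out fits Npas2 ranged from −0.11 to 0.49, Per3 from −0.74 to 0.095, Nr1d1 from −0.72 to 0.097 and Nr1d2 from −0.14 to 0.44, the last at −0.30 without the muscle-rich libraries. The cause was not tested. Depth limits Npas2 most, with 13 counts in knockout replicate 1.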

Other observations

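Glucocorticoids and immediate early signals act on clock genes, Per1 among them, and lists of genes that respond to each were examined. Of 11 glucocorticoid-responsive genes, 1 rose and none fell in knockout. By sign alone, 10 lay above 0 and 1 below, with a median log2 fold change of 0.29. Over all tested genes 7099 lay above and 6966 below 0. This split was not tested. Sgk1, a serum- and glucocorticoid-induced kinase, had 143, 136 and 92.7 CPM in knockout and 52.8, 39.0 and 48.0 CPM in wild type (log2 fold change 1.41, SE 0.19, edgeR adjusted p = 0.0129). Its groups did not overlap. Klf9, a glucocorticoid-induced repressor, had 147, 147 and 144 CPM in knockout and 80.5, 87.4 and 136 CPM in wild type (log2 fold change 0.53, edgeR adjusted p = 0.113, and 0.81 with adjusted p = 0.00371 without wild-type replicate 3). Fkbp5, a chaperone induced by the same hormone and chosen after its values were seen, had 65.6, 91.3 and 98.7 CPM in knockout and 36.7, 67.2 and 89.3 CPM in wild type, with overlap (edgeR adjusted p = 0.407).

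Of 8 immediate early genes, 1 rose and none fell, with 5 above and 3 below 0. Atf3, a stress-induced transcription factor, had 31.8, 37.9 and 30.6 CPM in knockout and 14.0, 11.5 and 4.88 CPM in wild type (log2 fold change 1.73, SE 0.32, edgeR adjusted p = 0.0238). Junb, a subunit of AP-1, had 45.4, 32.9 and 26.7 CPM in knockout and 25.3, 23.1 and 30.5 CPM in wild type, with overlap (edgeR adjusted p = 0.23). The calls of both Sgk1 and Atf3 were lost without knockout replicate 1, knockout replicate 2 or wild-type replicate 2 (adjusted p 0.0513 to 0.114), and that of Atf3 also without knockout replicate 3 (adjusted p = 0.0778). In these fits 0 to 41 of all genes were called higher and 1 to 5 lower, and the log2 fold changes were 1.30 to 1.34 for Sgk1 and 1.63 to 1.84 for Atf3. Without both libraries highest in muscle transcripts, where 1 of all genes was called, the values were 1.47 for Sgk1 (adjusted p = 0.259) and 1.90 for Atf3 (adjusted p = 0.292). The background of calls over all genes was 4.76% higher and 2.65% lower.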
